A study of Mus musculus with 48 samples.

Results

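Potassium channel genes, here every gene whose symbol on the array platform starts with Kcn, numbered 80 of the 16593 named genes on the array and were read by 119 probes. Of these genes 54 had 1 probe and 26 had more, up to 4, and each gene was read from its brightest probe, averaged over the 48 arrays. All 80 matched the mouse RefSeq gene table under the same symbol. Kcnrg is counted by its symbol but encodes a regulator of voltage-gated channels, not a channel subunit.

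The arrays came from 24 FvB/NJ mice, each giving cortex and striatum, so 48 arrays in all. Mice were wild-type or BACHD-ΔN17, and were aged 2, 7 or 11 months, with 4 mice (both sexes equally) in each of the 12 groups of region, genotype and age. BACHD-ΔN17 mice carry human mutant huntingtin on a bacterial artificial chromosome, which brings the human gene's own control regions, in a form that lacks the N17 domain at its start. No group with the transgene but an intact N17 domain was analysed here, so effects of the transgene and of the deletion cannot be told apart. Striatal tissue held the markers of its label: Ppp1r1b, the dopamine-signalling phosphoprotein of striatal projection neurons, lay at 14.09 to 14.85 on the striatal arrays and at 9.92 to 11.40 on the cortical ones, in log2 units of normalized intensity.

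Potassium channels let potassium leave the cell, which sets the resting potential and ends the action potential. Voltage-gated pore subunits (Kcna, Kcnc, Kcnd, Kcnh, Kcnq) open on depolarization, modifier subunits (Kcnf, Kcng, Kcns, Kcnv) join them without forming channels alone, inward rectifiers (Kcnj) and 2-pore leak channels (Kcnk) act near rest, and accessory subunits (Kcnab, Kcne, Kcnip, Kcnmb) change the gating and traffic of the pores. Striatal projection neurons are known for a very negative resting potential held by inward rectifiers and for A-type currents through Kcnd channels with Kcnip partners, both of which delay their firing.

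The stretch before an annotated transcription start of 6 members is printed here because these genes carry the main contrasts below. Kcnip2, Kcnh1 and Kcnh5 were lower in both regions of 11-month BACHD-ΔN17 mice. Striatal Kcnh5 was dim, and its call was lost in most other settings. Kcnj4 and Kcnd2 fell in striatum with a genotype difference unlike that of cortex, and Kcnk12 fell in cortex. Each of the 6 has a single start in the RefSeq promoter table (build GRCm38.p6), which holds 62 of the 80 members. Each run gives the 250 bases upstream of that start, on the gene's strand, 5′ to 3′. The windows of Kcnip2, Kcnh1 and Kcnj4 lie inside the span that RefSeq gives these genes on that build, so theirs is not the outermost start. Capitals mark GGGCGG, the GC box, and TGACG, the half-site of the cAMP response element, on either strand.
Kcnip2, chr19:45816064-45816313, minus strand: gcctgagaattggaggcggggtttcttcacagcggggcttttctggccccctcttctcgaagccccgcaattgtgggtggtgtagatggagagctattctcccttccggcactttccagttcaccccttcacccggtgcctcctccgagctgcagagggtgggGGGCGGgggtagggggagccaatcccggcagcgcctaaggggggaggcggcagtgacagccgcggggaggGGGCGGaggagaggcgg
Kcnh1, chr1:192190527-192190776, plus strand: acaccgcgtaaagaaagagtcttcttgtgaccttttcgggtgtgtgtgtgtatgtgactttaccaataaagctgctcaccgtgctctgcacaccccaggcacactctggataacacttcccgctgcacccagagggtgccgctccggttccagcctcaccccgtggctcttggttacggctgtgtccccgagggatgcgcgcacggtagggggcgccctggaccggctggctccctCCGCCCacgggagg
Kcnh5, chr12:75177333-75177582, minus strand: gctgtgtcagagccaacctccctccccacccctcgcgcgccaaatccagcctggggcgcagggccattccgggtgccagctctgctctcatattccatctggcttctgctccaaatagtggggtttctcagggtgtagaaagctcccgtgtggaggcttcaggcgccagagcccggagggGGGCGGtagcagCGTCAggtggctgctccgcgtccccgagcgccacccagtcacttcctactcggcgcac
Kcnj4, chr15:79505242-79505491, minus strand: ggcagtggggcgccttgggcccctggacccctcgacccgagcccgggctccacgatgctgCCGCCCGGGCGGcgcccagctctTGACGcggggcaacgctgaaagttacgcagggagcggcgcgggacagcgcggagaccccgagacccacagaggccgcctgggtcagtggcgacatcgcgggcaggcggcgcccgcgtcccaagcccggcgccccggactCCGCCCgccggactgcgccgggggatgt
Kcnd2, chr6:21215096-21215345, plus strand: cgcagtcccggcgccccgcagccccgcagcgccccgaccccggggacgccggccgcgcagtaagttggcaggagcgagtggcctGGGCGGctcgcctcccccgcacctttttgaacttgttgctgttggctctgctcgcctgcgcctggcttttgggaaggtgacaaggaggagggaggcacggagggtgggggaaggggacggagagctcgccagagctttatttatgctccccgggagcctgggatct
Kcnk12, chr17:87797995-87798244, minus strand: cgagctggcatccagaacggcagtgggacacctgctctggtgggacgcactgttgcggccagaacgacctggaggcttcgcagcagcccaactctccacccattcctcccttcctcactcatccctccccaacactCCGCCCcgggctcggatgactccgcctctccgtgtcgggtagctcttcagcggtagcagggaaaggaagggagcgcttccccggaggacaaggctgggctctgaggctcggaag
The GC box was found in all 6 windows, 3 times in that of Kcnj4, where the first pair adjoin. It was present in 32.7% of the 32851 windows of all genes and in 39 of 84 windows of members (46.4%). TGACG was found before Kcnh5 and Kcnj4, against 17.8% of all windows and 15.5% of the members' windows. The EGR site GCGNGGGCG was found in none of the 6, against 4.7% of all windows, and the E-box CANNTG was found before Kcnip2, Kcnh5 and Kcnk12, against 66.2% of all windows. These matches describe the letters of the windows, not binding.

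Detection set how much of the family could be followed. The detection p-value of a probe is the chance of so bright a signal from negative control beads. Genes entered the tests of a region when it was under 0.05 on at least 4 of that region's 24 arrays. This held for 54 members in striatum and 52 in cortex, 50 of them in both, and 33 were detected on all 48 arrays. Kcna4, Kcna5, Kcne2 and Kcne4 were tested in striatum alone, Kcnh7 and Kcnk9 in cortex alone, and 24 members in neither, 16 of which were detected on no array. Among the untested was Kcnh4, a voltage-gated pore subunit, detected on no array. Kcnj10, the glial inward rectifier, had no probe in the annotation used here. By class, 15 of 23 voltage-gated pore subunits, 8 of 12 inward rectifiers, 8 of 13 leak channels, 5 of 7 calcium- or sodium-activated subunits, 5 of 9 modifiers and 12 of 15 accessory subunits were tested in striatum. Between 12477 and 14378 of the 25697 probes were detected per array.

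Cortex and striatum of wild-type mice differed in most of their potassium channel transcripts. The comparison took the difference of striatum minus cortex within each of the 12 wild-type mice, and of the 56 members tested in either region 12 were higher in striatum and 28 were higher in cortex (limma, Benjamini-Hochberg adjusted p under 0.05 over all 11573 genes tested). Over all genes 25.3% were higher and 24.0% lower in striatum, against 21.4% and 50.0% of members, and the median log2 difference was -0.30 for members and 0.01 for all genes.

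**Figure D1:**
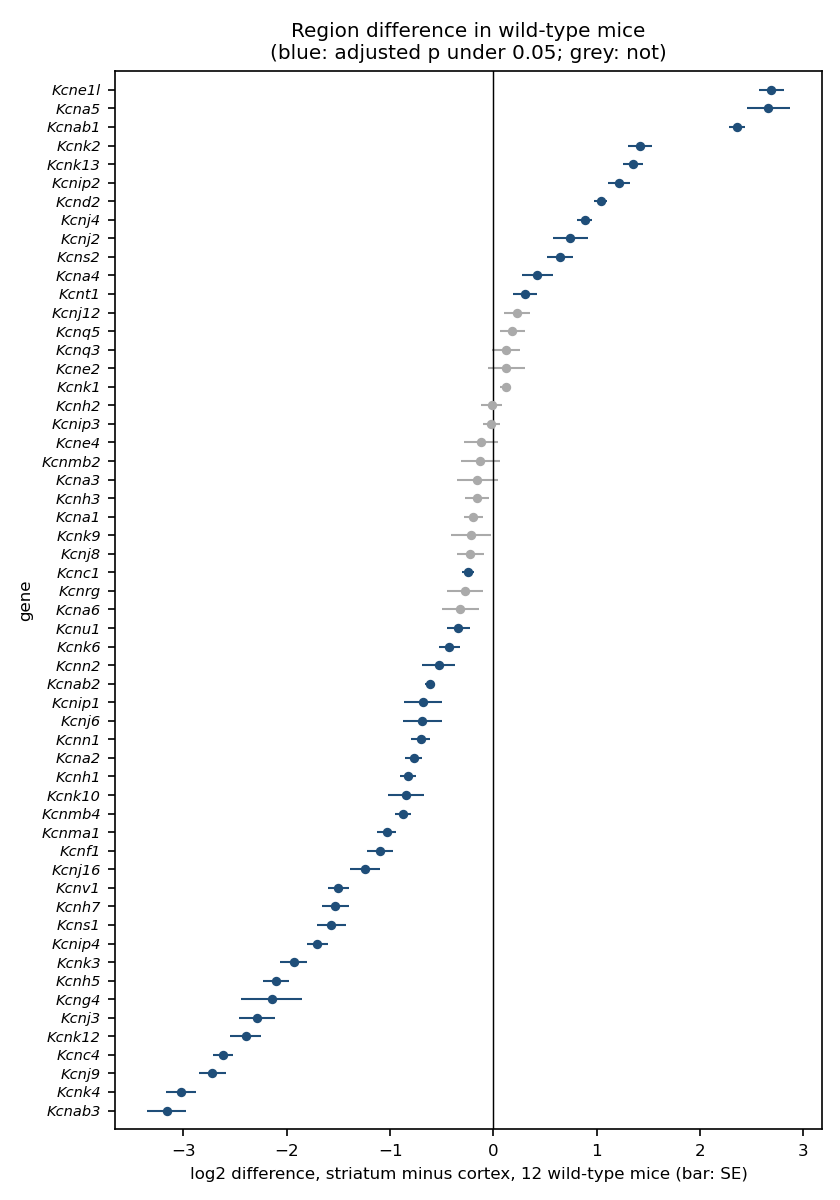
Difference in log2 intensity between striatum and cortex of the 12 wild-type mice for the 56 members tested in either region, with SE. Kcne1l and Kcnab1 lie far to the striatal side and Kcnab3 and Kcnj9 far to the cortical side. The points of Kcna5 (0 of 12 cortical arrays detected), Kcnh7 (0 of 12 striatal), Kcnk12 (2 of 12 striatal), Kcnk4 (4 of 12 striatal) and Kcng4 (5 of 12 striatal) rest on levels near the detection floor, so their place in the order is not measured. The same limit holds for other dim points, such as Kcna4, Kcne2, Kcne4, Kcnj6, Kcnk9 and Kcnmb2. Kcnj9 and Kcnj3 were detected on 10 of 12 striatal arrays and were dim there, so the size of their differences is limited too.

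Of 12 accessory subunits 3 were higher and 5 lower in striatum, against 25.3% and 24.0% of all genes, so the higher count is near the background. Kcne1l, which slows and reduces several voltage-gated channels, ranged from 9.14 to 9.72 in wild-type striatum (median 9.45) and from 6.18 to 7.35 in cortex (median 6.79), a difference of 2.69 (SE 0.12, adjusted p = 5.86e-18). Kcnab1, a cytosolic subunit that speeds inactivation of Kcna channels, ranged from 13.65 to 14.22 in striatum and from 11.32 to 11.81 in cortex, a difference of 2.36 (SE 0.08). Neither gene's ranges overlapped between the regions.

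Kcna5, a voltage-gated pore subunit, was detected on all 12 striatal arrays of wild-type mice (6.66 to 8.83) and on 0 of 12 cortical ones, and was at least 3.81-fold higher in striatum when the cortical arrays were set to their detection floor. The adjusted p of the fit was 3.52e-12, but the cortical values are undetected and the gene was tested through its striatal detection, so the size rests on the bound. Kcnk2, a leak channel opened by stretch and lipids, was 1.42 higher in striatum (SE 0.12), and Kcnk13, another leak channel, 1.35 (SE 0.10). The A-type pair followed, with Kcnip2 1.22 higher (SE 0.11) and Kcnd2 1.04 higher (SE 0.06), and the inward rectifier Kcnj4 was 0.88 higher (SE 0.07).

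On the cortical side, Kcnab3, a further cytosolic subunit, ranged from 10.07 to 11.18 in cortex and from 6.64 to 8.46 in striatum, a difference of -3.16 (SE 0.19, adjusted p = 3.75e-15). Kcnk4, a mechanically gated leak channel, ranged from 8.22 to 9.03 in cortex and was detected on 4 of 12 wild-type striatal arrays, so the size of its fitted difference (-3.02, SE 0.15) is limited by the detection floor. Kcnj9 and Kcnj3, subunits of the inward rectifiers opened by G proteins, differed by -2.72 (SE 0.13) and -2.29 (SE 0.17). Both were detected on 10 of 12 wild-type striatal arrays and lay near the detection floor there, which limits these sizes too.

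Kcnc4, a fast voltage-gated subunit, differed by -2.62 (SE 0.09), the leak channel Kcnk12 by -2.40 (SE 0.15), the modifier Kcng4 by -2.15 (SE 0.29) and the voltage-gated Kcnh5 by -2.10 (SE 0.13). Kcnk12 was detected on 2 of 12 wild-type striatal arrays and Kcng4 on 5, so both lay near the detection floor there, which limits the size of their differences. By class, 4 of 5 modifiers and 4 of 5 calcium- or sodium-activated subunits were lower in striatum, against 6 of 16 voltage-gated pore subunits and 24.0% of all genes. Slc17a7, the vesicular glutamate transporter of cortical excitatory neurons, ranged from 6.33 to 10.63 over the striatal arrays and from 13.16 to 13.85 over the cortical ones, and its part in the striatal levels of cortex-rich members was not tested.

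No member passed the threshold for age in wild-type mice. From 2 to 11 months 0 of 54 members were called in striatum (0.134% of all genes) and 0 of 52 in cortex (0.0181%). An unadjusted p under 0.05 was found for 6 members in striatum, against 1055 of all 11225 genes. In cortex it was found for 1 member, against 903 of 11047 genes.

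At 2 months no member was called between genotypes. None of 54 members was called in striatum, where 0.00891% of all genes were. There 6 members had an unadjusted p under 0.05, against 548 of all 11225 genes. None of 52 was called in cortex (0.0% of all genes), with 1 under the unadjusted 0.05, against 219 of 11047 genes. For the inward rectifier Kcnj4 in striatum, BACHD-ΔN17 mice measured 11.55, 11.69, 11.62 and 11.53 and wild-type mice 12.25, 11.98, 11.79 and 11.81. The groups did not overlap, but the difference of -0.36 (SE 0.11) had an adjusted p of 0.913.

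At 7 months the calls in BACHD-ΔN17 mice were all downward. Of 54 striatal members 12 were called lower (22.2%, against 7.29% of all genes) and 0 higher (against 5.28%), with a median log2 difference of -0.21 for members and 0.01 for all genes. Cortex had 4 of 52 members lower (7.69%, against 1.28%) and 0 higher (against 0.498%), with medians of -0.19 and 0.01. The striatal count was 6 under scale normalization. The cortical count was 0 under scale normalization, 1 without BACHD-ΔN17 replicate 3 of that age, and 2 without BACHD-ΔN17 replicate 2 or 4 or any of the 4 wild-type mice of that age.

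At 11 months the striatum had 18 members lower (33.3%, against 10.1% of all genes) and 1 higher (against 8.73%), and the cortex had 21 lower (40.4%, against 9.16%) and 1 higher (against 6.97%). The median difference of members was -0.21 in striatum and -0.29 in cortex, against 0.02 over all genes in each region. In cortex the 22 calls became 12 without the arrays of internal sample numbers 1 to 8 in the sample labels (median intensities of 211 to 237, against 218 to 283 on the others), and 9 under scale normalization. Leaving out these numbers removes part of the 11-month cortical arrays of both genotypes. The tests between regions also lose every mouse with such an array. An effect of the sample number and the smaller groups cannot be told apart there. Scale normalization moved the median of all genes in striatum at 11 months from 0.02 to -0.13 and the share of higher genes among all calls from 46.2% to 17.2%, with the members' median at -0.38. In tissue RNA, fewer cells of a type and less RNA per cell cannot be told apart.

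**Figure D2:**
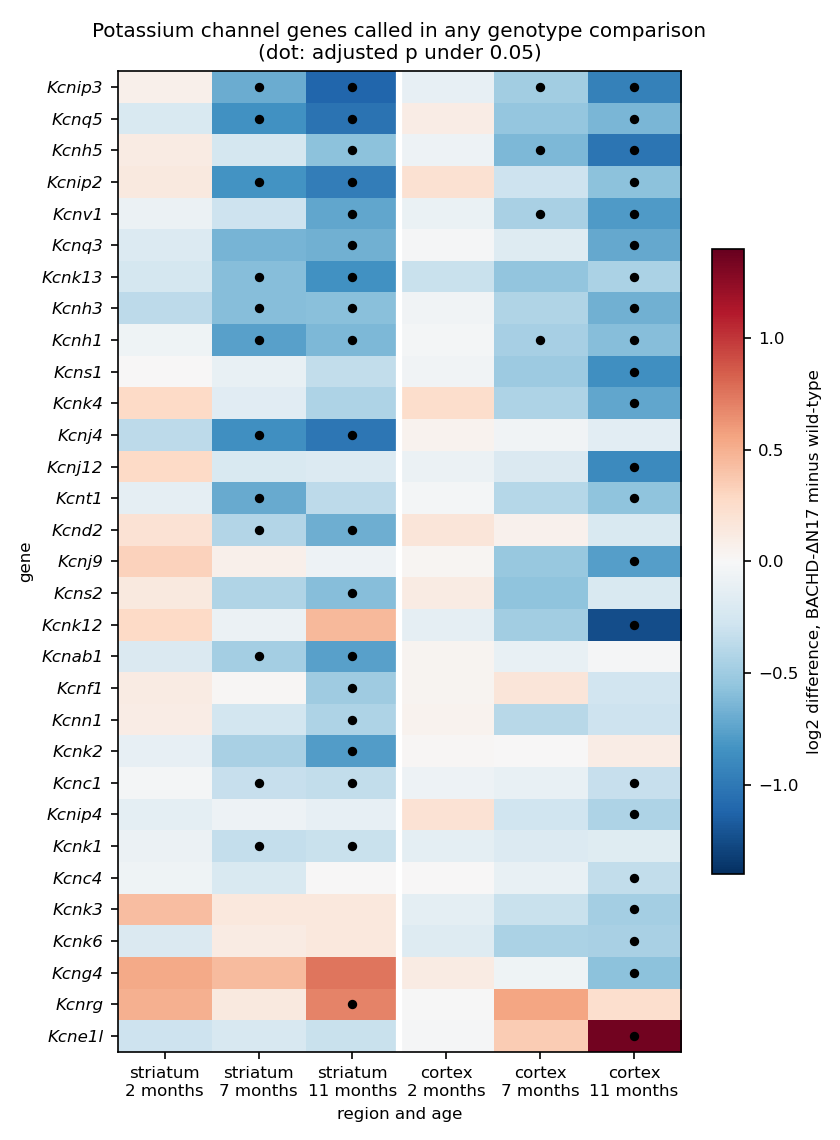
Log2 difference of BACHD-ΔN17 minus wild-type for the 31 members called in at least 1 genotype comparison, by region and age, with a dot where the adjusted p was under 0.05. No dot stands at 2 months, and 29 of the 31 members have blue, lower, called values.

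Of the 12 members called lower in striatum at 7 months, 11 were called lower again at 11 months in other mice, which is 91.7% of the first list and 61.1% of the second. The exception was the sodium-activated channel Kcnt1. All 4 members called in cortex at 7 months, Kcnip3, Kcnh1, Kcnh5 and Kcnv1, were among the 21 called there at 11 months. The 18 striatal and 21 cortical members lower at 11 months, from the same mice, shared 10 genes (55.6% and 47.6% of the lists). The same overlaps over all called genes were not counted, so these shares are not a trait of the members.

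Among the accessory subunits, the Kcnip family, calcium sensors that bind Kcnd channels, had 2 of 4 tested members lower in striatum and 3 of 4 in cortex at 11 months. Over all genes 10.1% and 9.16% were lower. Kcnip3, which also acts in the nucleus as a calcium-dependent repressor, measured 9.26, 9.51, 9.47 and 9.44 in BACHD-ΔN17 striatum at 11 months and 10.52, 10.59, 10.34 and 10.68 in wild-type. In cortex it measured 9.37, 9.59, 9.89 and 9.90 against 10.71, 10.77, 10.44 and 10.62. Every BACHD-ΔN17 array lay below every wild-type array in both regions, with differences of -1.11 (SE 0.13, adjusted p = 3.69e-07) in striatum and -0.95 (SE 0.12, adjusted p = 2.43e-06) in cortex. At 7 months the differences were -0.69 (SE 0.13, adjusted p = 5.17e-04) and -0.49 (SE 0.12, adjusted p = 0.0218).

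Kcnip2, whose upstream window opens the set above, measured 9.42, 9.76, 9.65 and 9.89 in BACHD-ΔN17 striatum at 11 months and 10.70, 10.43, 10.71 and 10.76 in wild-type. At 7 months it measured 9.90, 10.28, 9.55 and 9.96 against 10.93, 10.84, 10.52 and 10.75. No array of the genotypes overlapped at either age, while at 2 months the BACHD-ΔN17 values of 10.61 to 10.74 lay inside the wild-type range of 10.40 to 10.76. The differences were -0.84 at 7 months (SE 0.13, adjusted p = 4.47e-05) and -0.97 at 11 months (SE 0.13, adjusted p = 2.79e-06).

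Cortical Kcnip2 fell at 11 months by 0.57 (SE 0.16, adjusted p = 0.0136), with 8.91 to 9.17 in BACHD-ΔN17 and 9.26 to 9.73 in wild-type arrays. Its other 2 probes were lower too at 11 months, with differences of -1.82 and -1.33 in striatum and of -1.28 and -1.05 in cortex. The change of the genotype difference from 2 to 11 months passed for both genes in both regions, at -1.17 and -1.10 in striatum and -0.83 and -0.79 in cortex for Kcnip3 and Kcnip2. Kcnip4 was called lower in cortex (-0.43, SE 0.15, adjusted p = 0.0456) and gave -0.11 in striatum (adjusted p = 0.718), and Kcnip1 gave 0.06 in striatum and 0.00182 in cortex without passing.

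Kcnd2, the A-type pore that these subunits join, measured 11.62, 11.47, 11.42 and 11.65 in BACHD-ΔN17 striatum at 11 months and 12.11, 12.26, 12.41 and 12.12 in wild-type. At 7 months the values were 11.97, 11.84, 11.84 and 11.85 against 12.30, 12.24, 12.26 and 12.31. The groups did not overlap at either age, and the differences were -0.40 (SE 0.08, adjusted p = 8.72e-04) and -0.69 (SE 0.08, adjusted p = 3.41e-07). At 2 months all 4 BACHD-ΔN17 arrays (12.26 to 12.35) instead lay above the wild-type arrays (11.88 to 12.23), without passing (0.20, adjusted p = 0.99), and the change from 2 to 11 months was -0.89 (SE 0.11, adjusted p = 8.98e-06).

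In cortex Kcnd2 ranged from 10.80 to 11.14 in BACHD-ΔN17 and from 10.93 to 11.29 in wild-type mice at 11 months, and the groups overlapped (-0.21, adjusted p = 0.17). The genotype difference in striatum minus that in cortex of the same mice was -0.46 at 7 months (SE 0.12, adjusted p = 0.0431) and -0.47 at 11 months (SE 0.12, adjusted p = 0.0167). The call was lost on leaving out each of 9 single mice at 7 months and of 3 at 11 months. On the fewer mice left without internal sample numbers 1 to 8, the 11-month test of this difference gave adjusted p = 0.56.

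Kcnab1, already rich in striatum, measured 13.24, 13.23, 13.01 and 13.37 in BACHD-ΔN17 striatum at 11 months and 13.90, 13.80, 14.00 and 14.19 in wild-type. At 7 months the values were 13.39, 13.55, 13.43 and 13.35 against 13.65, 13.98, 14.06 and 13.91. The genotypes did not overlap at these ages, with differences of -0.47 (SE 0.10, adjusted p = 0.00228) and -0.76 (SE 0.10, adjusted p = 3.61e-06). Its other 2 probes gave -0.62 and -0.84 at 11 months.

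Cortical Kcnab1 gave a difference of -0.02 at 11 months (SE 0.09, adjusted p = 0.914), with BACHD-ΔN17 arrays at 11.38 to 11.76 and wild-type arrays at 11.38 to 11.67. The striatal minus the cortical difference was -0.74 (SE 0.15, adjusted p = 0.00231).

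Kcne1l was the 1 member called higher in cortex at 11 months. It measured 8.30, 7.55, 7.90 and 8.08 in BACHD-ΔN17 cortex at 11 months and 7.35, 6.62, 6.18 and 6.26 in wild-type, so all 4 BACHD-ΔN17 arrays were above the highest wild-type array. The difference was 1.35 (SE 0.24, adjusted p = 2.64e-04, 2.56-fold). Striatal Kcne1l measured 9.68, 9.04, 8.94 and 9.22 against 9.41, 9.52, 9.49 and 9.72, which overlapped and gave -0.31 (adjusted p = 0.186). Striatum minus cortex gave -1.67 (SE 0.24, adjusted p = 4.12e-05).

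Of 8 inward rectifiers tested in each region, 1 was lower in striatum and 2 in cortex at 11 months, where 10.1% and 9.16% of all genes were lower, so the striatal count is near the background. Kcnj4, a strong inward rectifier of striatal projection neurons, measured 10.97, 11.06, 10.88 and 10.86 in BACHD-ΔN17 striatum at 11 months and 12.09, 11.75, 11.94 and 12.04 in wild-type. At 7 months the values were 10.92, 11.39, 10.91 and 10.91 against 11.88, 12.00, 11.78 and 11.93. The genotypes did not overlap at either age, and replicate 2 of the 7-month BACHD-ΔN17 mice stood above its 3 group mates. The differences were -0.86 (SE 0.11, adjusted p = 2.71e-06) and -1.01 (SE 0.11, adjusted p = 9.65e-08).

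Cortical Kcnj4 measured 11.06, 10.69, 10.97 and 10.41 against 10.71, 10.91, 11.02 and 11.09 at 11 months, which overlapped (-0.15, adjusted p = 0.463). The genotype difference was further below 0 in striatum than in cortex, by -0.81 at 7 months (SE 0.15, adjusted p = 0.00161) and -0.86 at 11 months (SE 0.15, adjusted p = 3.31e-04). On the fewer mice left without internal sample numbers 1 to 8, the latter gave adjusted p = 0.419.

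Kcnj12, another strong inward rectifier, measured 6.59, 6.58, 6.33 and 6.39 in BACHD-ΔN17 cortex at 11 months and 7.95, 7.27, 7.11 and 7.13 in wild-type. Kcnj9 measured 8.36, 8.47, 8.50 and 8.65 against 9.37, 9.46, 9.04 and 9.20. Neither overlapped, with differences of -0.89 (SE 0.20, adjusted p = 0.00228) and -0.77 (SE 0.15, adjusted p = 8.82e-04), and neither was called in striatum (-0.19 and -0.07). Kcnj2, a strong inward rectifier of the same subfamily, gave -0.51 at 7 months (adjusted p = 0.157) and -0.42 at 11 months (adjusted p = 0.233) in striatum with overlapping groups.

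Among the leak channels, 3 of 8 were lower in striatum and 5 of 9 in cortex at 11 months, against 10.1% and 9.16% of all genes. Kcnk2 measured 10.61, 10.74, 10.74 and 10.73 in BACHD-ΔN17 striatum at 11 months and 11.54, 11.48, 11.58 and 11.33 in wild-type, with no overlap (-0.78, SE 0.16, adjusted p = 9.37e-04). Its second probe gave -1.22 (SE 0.18, adjusted p = 1.88e-05). At 7 months the first probe missed the threshold (-0.45, adjusted p = 0.0673) and the second passed (-0.84, adjusted p = 0.00256).

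Cortical Kcnk2 gave 0.11 at 11 months (adjusted p = 0.765), with 9.77 to 10.41 in BACHD-ΔN17 and 9.44 to 10.33 in wild-type arrays. Striatum minus cortex gave -0.89 (SE 0.23, adjusted p = 0.0181), and adjusted p = 0.328 on the fewer mice left without internal sample numbers 1 to 8.

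Kcnk12 was called in cortex. BACHD-ΔN17 cortex measured 6.83, 6.10, 5.85 and 7.03 at 11 months and wild-type cortex 7.52, 7.45, 8.18 and 7.63, with no overlap (-1.24, SE 0.25, adjusted p = 0.00108, 2.36-fold lower), although it was detected on 3 of the 4 BACHD-ΔN17 arrays. Striatal values were 5.37, 5.59, 5.66 and 6.20 against 5.13, 5.33, 5.39 and 5.13, close to the detection floor, with 1 and 0 of 4 arrays detected. Striatum minus cortex gave 1.70 (SE 0.30, adjusted p = 4.53e-04), which is bounded by that floor in striatum. On the fewer mice left without internal sample numbers 1 to 8, the cortical fall had adjusted p = 0.078 and the difference between regions 0.114.

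**Figure D3:**
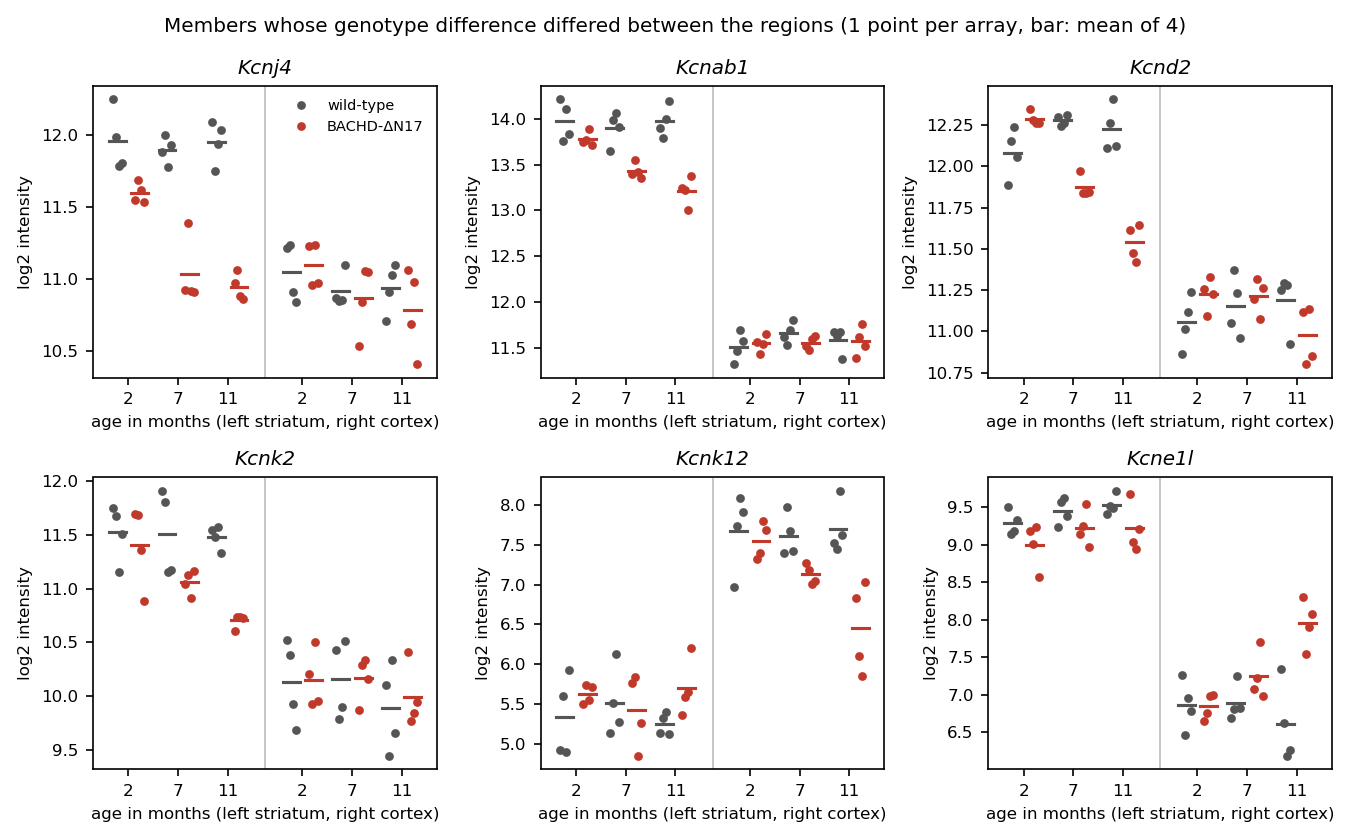
Log2 intensity of every array for the 6 members whose genotype difference at 11 months differed between striatum and cortex, by age, with the mean of each 4 arrays. Kcnj4, Kcnab1, Kcnd2 and Kcnk2 separate by genotype in striatum at 11 months, and Kcnk12 and Kcne1l in cortex, Kcne1l upward.

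These 6 were the members called in the 11-month test of striatum minus cortex, with 5 of 56 lower (8.93%, against 3.11% of all genes) and 1 higher (against 2.87%). Without internal sample numbers 1 to 8, which leaves fewer 11-month mice, the 6 calls became 2, Kcne1l and Kcnab1. Over all genes 34 were then higher and 54 lower, in place of 332 and 360. Scale normalization moved the share of higher genes among all calls in that test from 48.0% to 22.2%. At 7 months 2 of 56 were lower (3.57%, against 1.08%), Kcnj4 and Kcnd2, and 0 higher (against 0.83%). At 2 months 0 of 56 were called (0.0% of all genes). An unadjusted p under 0.05 was found for 5 members at 2 months, against 331 of all 11573 genes. The wild-type arrays serve both the region difference and the genotype difference, so the values are only set side by side. Kcnab1, Kcnk2, Kcnd2 and Kcnj4 had wild-type striatum-minus-cortex differences of 2.36, 1.42, 1.04 and 0.88, and Kcnk12 and Kcne1l of -2.40 and 2.69.

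Kcnk13, a leak channel also known from microglia, fell in both regions. It measured 8.94, 9.12, 9.28 and 9.65 in BACHD-ΔN17 striatum at 11 months and 10.01, 10.29, 10.19 and 9.90 in wild-type, without overlap (-0.85, SE 0.16, adjusted p = 2.69e-04). In cortex the difference was -0.44 (SE 0.15, adjusted p = 0.0461), with overlap. Microglial markers moved with it at 11 months: 3 of 4 tested were lower in striatum (median -0.46, mean level 9.87 to 10.04 in wild-type and 9.22 to 9.71 in BACHD-ΔN17) and 1 of 4 in cortex (median -0.33). The shares of all genes lower were 10.1% and 9.16%. At 7 months Kcnk13 fell in striatum by 0.59 while 0 of 4 markers were called (median -0.09), and the markers' part in the result was not tested.

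Kcnk1, a widely expressed leak channel, fell by 0.34 at 7 months and by 0.31 at 11 months in striatum. In cortex at 11 months the leak channels Kcnk4 (-0.72, SE 0.18, adjusted p = 0.00765), Kcnk3 (-0.47, SE 0.14, adjusted p = 0.0246) and Kcnk6 (-0.45, SE 0.15, adjusted p = 0.0451) were lower. The other 2 probes of Kcnk4 (-0.42 and -0.24, adjusted p = 0.259 and 0.518) and the second probe of Kcnk6 (-0.53, adjusted p = 0.233) did not pass. The cortical calls of Kcnk6, Kcnk13 and Kcnip4 were lost without each of 14, 15 and 16 single mice.

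Voltage-gated pore subunits gave 7 calls of 15 in striatum and 7 of 14 in cortex at 11 months, all lower, with medians of -0.43 and -0.42. Of all genes 10.1% and 9.16% were lower. The Kcnh family, slow outward channels of forebrain neurons, had 3 of 4 called in striatum and 3 of 5 in cortex. Kcnh1 measured 9.39, 9.86, 9.61 and 9.93 in BACHD-ΔN17 striatum at 11 months and 10.43, 10.05, 10.37 and 10.46 in wild-type, and in cortex 10.37, 10.53, 10.56 and 10.38 against 10.90, 11.34, 11.04 and 10.94. The genotypes were separate in each region, with differences of -0.63 (SE 0.12, adjusted p = 4.61e-04) and -0.59 (SE 0.09, adjusted p = 7.32e-05). Its dimmer second probe did not pass in either region (-0.30 and -0.68).

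Kcnh5, the near relative of Kcnh1, fell in cortex, where BACHD-ΔN17 arrays measured 7.30, 7.34, 7.07 and 7.56 and wild-type arrays 8.42, 8.31, 8.34 and 8.28 (-1.02, SE 0.15, adjusted p = 3.83e-05). The cortical genotypes were separate at 7 months as well, at 7.86, 7.87, 7.58 and 7.89 against 8.62, 8.38, 8.20 and 8.52 (-0.63, SE 0.15, adjusted p = 0.0259). In striatum, where Kcnh5 was dim, the 11-month difference was -0.58 (SE 0.20, adjusted p = 0.0407). This call was lost in 9 of the 12 other settings that refit it. At that age Kcnh5 was detected on 3 of the 4 BACHD-ΔN17 striatal arrays. Kcnh3 fell by 0.58 in striatum and by 0.68 in cortex.

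Kcnq3 and Kcnq5 form the slow M-current that restrains repetitive firing, and both tested members of the family were lower in both regions at 11 months. Kcnq5 measured 7.24, 6.80, 6.13 and 6.75 in BACHD-ΔN17 striatum and 7.99, 7.39, 8.00 and 7.69 in wild-type (-1.03, SE 0.23, adjusted p = 0.00153), and in cortex 7.05, 6.89, 6.69 and 6.75 against 7.58, 7.50, 7.21 and 7.63 (-0.64, SE 0.15, adjusted p = 0.00504). Its genotypes were separate in both regions. Striatal Kcnq5 had already fallen at 7 months, by 0.85 (SE 0.23, adjusted p = 0.0126).

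Kcnq3 measured 6.80, 6.12, 6.06 and 6.50 in BACHD-ΔN17 striatum and 7.07, 6.88, 7.36 and 6.85 in wild-type at 11 months (-0.67, SE 0.22, adjusted p = 0.0348). In cortex it measured 6.88, 6.07, 6.57 and 6.04 against 7.34, 6.86, 7.13 and 7.09 (-0.72, SE 0.19, adjusted p = 0.0107). The groups overlapped in cortex and were narrowly apart in striatum.

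Kcnc1 and Kcnc4 are pores of fast-spiking neurons. Kcnc1 fell by 0.35 in striatum and by 0.32 in cortex, and Kcnc4 fell by 0.34 in cortex. The second Kcnc1 probe passed in neither region (-0.12 and -0.42). None of the 6 Kcna members tested in striatum and 4 in cortex was called at any age. Kcna4, an A-type pore, was detected on 6 striatal arrays and gave -0.50 at 11 months (adjusted p = 0.143).

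Among the modifier subunits 3 of 5 were lower in each region at 11 months (10.1% and 9.16% of all genes), with medians of -0.50 in striatum and -0.57 in cortex. Kcnv1, a silent partner of other voltage-gated pores, measured 8.36, 9.09, 8.94 and 9.51 in BACHD-ΔN17 striatum and 9.74, 9.58, 9.71 and 9.77 in wild-type, and in cortex 10.58, 10.05, 10.22 and 10.41 against 10.71, 11.02, 11.53 and 11.16. The genotypes did not overlap in either region, with differences of -0.72 (SE 0.17, adjusted p = 0.00238) and -0.79 (SE 0.11, adjusted p = 2.68e-05).

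Kcns1, a silent subunit, measured 7.30, 6.79, 7.06 and 7.23 in BACHD-ΔN17 cortex at 11 months and 8.40, 7.73, 7.77 and 7.93 in wild-type (-0.86, SE 0.17, adjusted p = 0.00109), with no overlap, and gave -0.34 in striatum without passing. Kcng4 fell in cortex (-0.57, adjusted p = 0.025), and Kcns2 (-0.60, adjusted p = 0.00887) and Kcnf1 (-0.50, adjusted p = 0.0498) fell in striatum. Kcnf1 lost its call in 8 other settings and on leaving out each of 16 single mice.

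**Figure D4:**
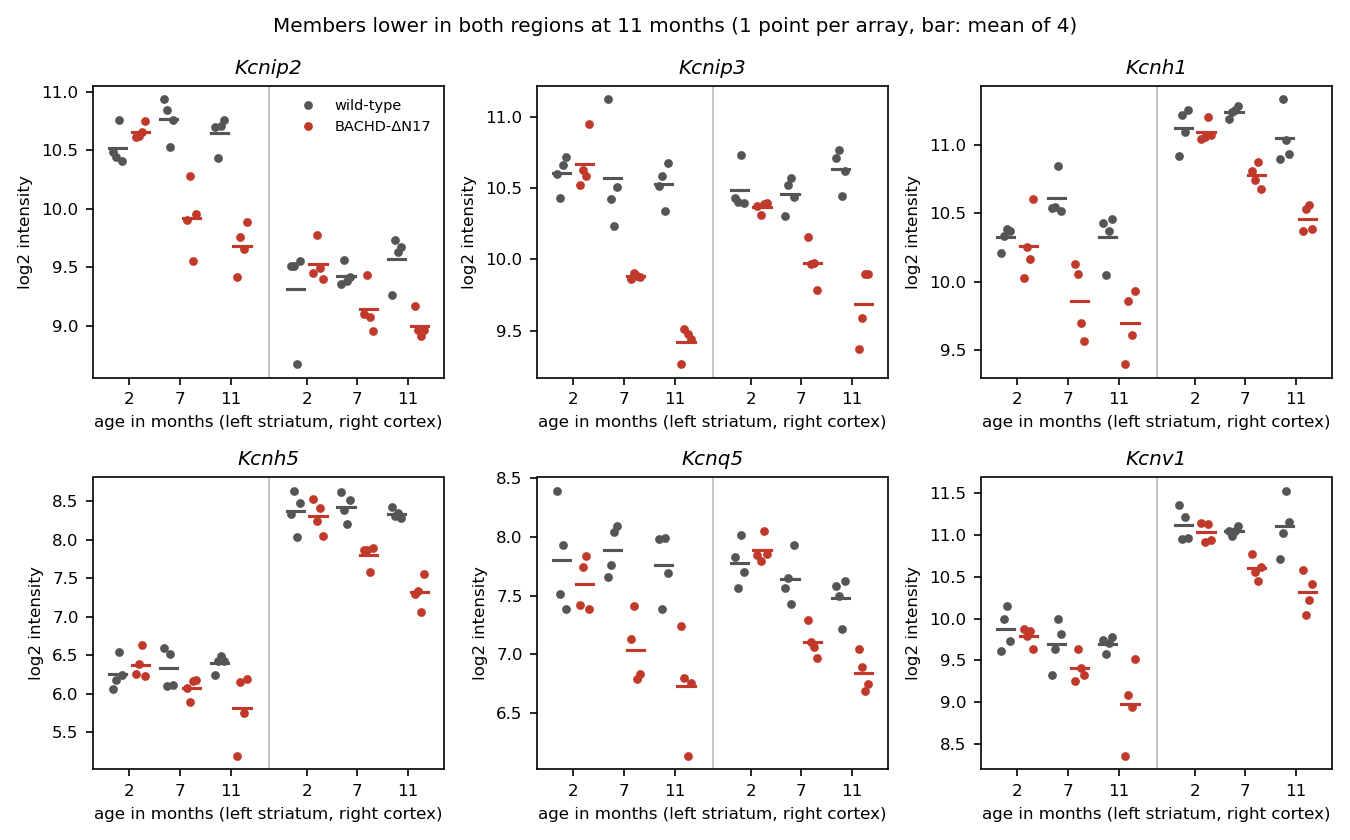
Log2 intensity of every array for 6 of the 10 members lower in both regions at 11 months, by age, with the mean of each 4 arrays. BACHD-ΔN17 arrays lie below all wild-type arrays at 11 months in both regions for each of the 6. Among the members not shown, Kcnk13 and Kcnq3 overlapped in cortex, so the 6 do not stand for all 10. Striatal Kcnh5 was dim, and its call was lost in most other settings.

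Of the calcium- or sodium-activated subunits, Kcnt1 measured 8.06, 8.09, 8.22 and 8.64 in BACHD-ΔN17 striatum at 7 months and 9.05, 8.92, 8.85 and 9.01 in wild-type, with no overlap (-0.71, SE 0.18, adjusted p = 0.00996). At 11 months its striatal groups overlapped (-0.36, adjusted p = 0.181), while cortical Kcnt1 was lower (-0.56, SE 0.17, adjusted p = 0.021). Kcnn1, a small-conductance calcium-activated channel, fell by 0.43 in striatum with an adjusted p of 0.04998, a call lost without each of 19 single mice. Kcnma1, the large-conductance channel, gave -0.19 in striatum (adjusted p = 0.325) and -0.26 in cortex (adjusted p = 0.156).

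Kcnrg, the regulator with a Kcn symbol, was the 1 member called higher in striatum at 11 months. It measured 6.87, 6.32, 6.00 and 6.16 in BACHD-ΔN17 and 5.37, 5.62, 5.79 and 5.80 in wild-type arrays, of which 2 of 4 were detected (0.69, SE 0.24, adjusted p = 0.0448). Its second probe did not pass (0.41, adjusted p = 0.227), and the call was lost on leaving out each of 12 single mice.

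For the 10 members lower in both regions, the genotype difference in striatum minus that in cortex ranged from -0.41 (Kcnk13) to 0.45 (Kcnh5), and none passed (lowest adjusted p = 0.227). With SEs of 0.11 to 0.27, these values do not show that the falls were equal.

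**Figure D5:**
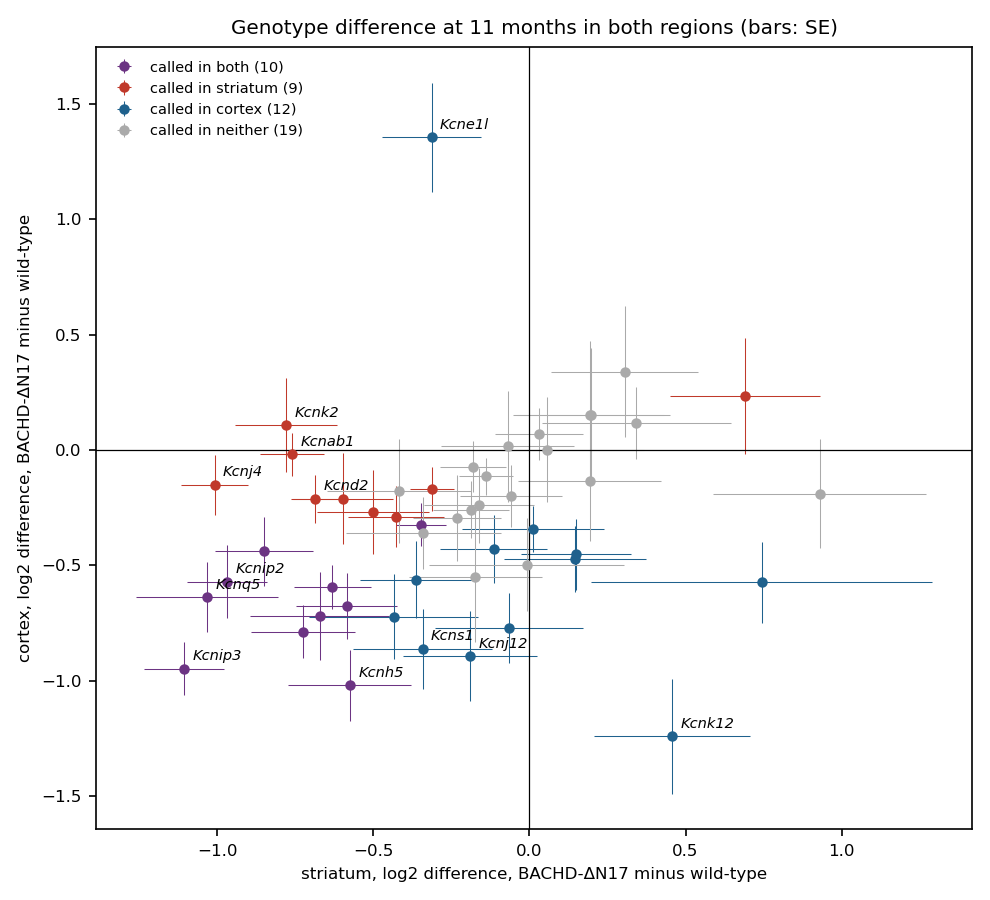
Genotype difference at 11 months in striatum (horizontal) and cortex (vertical) for the 50 members tested in both regions, with SE, coloured by where the difference was called. The 10 members called in both lie at lower left, Kcnk2, Kcnab1, Kcnj4 and Kcnd2 lie between -0.21 and 0.11 on the cortical axis, and Kcne1l and Kcnk12 stand apart above and below.

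The genotype difference also changed with age. From 2 to 11 months the genotype difference moved downward for 7 of 54 members in striatum (13.0%, against 4.28% of all genes) and upward for 0 (against 2.39%): Kcnip3, Kcnip2, Kcnd2, Kcns2 (-0.74), Kcnj4 (-0.64), Kcnh1 (-0.57) and Kcnab1 (-0.56). In cortex it moved downward for 7 of 52 (13.5%, against 2.63%), Kcnk4 (-0.97), Kcnh5 (-0.95), Kcnip3, Kcnj9 (-0.80), Kcnip2, Kcnv1 (-0.70) and Kcnh1 (-0.56), and upward for 1 (against 1.34%), Kcne1l (1.37). The cortical count of 8 became 0 on internal sample numbers 1 to 32 alone, which leaves fewer cortical arrays at every age, and 5 without BACHD-ΔN17 replicate 2 of 2 months. Under scale normalization the share of higher genes among all calls moved from 35.8% to 20.0% in striatum and from 33.7% to 48.8% in cortex. Between 7 and 11 months no member passed in striatum (0.0% of all genes) or in cortex (0.163%). An unadjusted p under 0.05 was found for 3 of 54 members in striatum, against 781 of all 11225 genes. In cortex it was found for 7 of 52 members, against 844 of 11047 genes.

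A list of genes that act with potassium channels but lack a Kcn symbol was counted too. Of 26 such genes 18 had a probe and 17 were tested in each region. In striatum at 7 months 2 were higher, the chloride exporter Slc12a5 (0.61) and the axonal protein Cntnap2 (0.55), and 2 lower, the channel regulator Abcc8 (-0.89, SE 0.17, adjusted p = 6.35e-04) and Adam22 (-0.43). At 11 months Abcc8 was again lower in striatum (-0.75) and Dpp6, a membrane partner of Kcnd channels, was higher (0.38, SE 0.11, adjusted p = 0.02). Its relative Dpp10 was lower in cortex (-0.41, SE 0.08, adjusted p = 0.00102) and gave -0.10 in striatum. The medians of the list at 11 months were -0.10 in striatum and -0.08 in cortex. These striatal counts are near the background, where 5.28% of all genes were higher and 7.29% lower at 7 months and 8.73% and 10.1% at 11 months.

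Markers of cell types moved beside these results. Of 6 tested markers of striatal projection neurons, 5 were lower in striatum at 7 months and 6 at 11 months, with medians of -0.67 and -1.06 and mean levels of 13.04 to 13.33 in wild-type and 12.07 to 12.21 in BACHD-ΔN17 mice at 11 months. In cortex 3 of the 6 were lower at 11 months (median -0.35), as were 2 of 3 markers of cortical excitatory neurons (median -0.33) and 3 of 5 of interneurons (median -0.27). In striatum 2 of the 5 interneuron markers were lower at both ages, Chat of cholinergic cells (-0.97 at 7 and -1.02 at 11 months) and Npy (-0.74 and -0.83). The general neuronal markers had 1 of 4 lower in striatum and 0 of 4 in cortex, with medians of 0.00216 and -0.17. Of all genes 7.29% were lower in striatum at 7 months and 10.1% at 11 months. In cortex at 11 months 9.16% were.

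Of the 6 astrocyte markers 2 were higher in striatum at both ages, the filament gene Gfap (3.21 at 7 and 2.91 at 11 months) and the water channel Aqp4 (0.53 and 0.52), and 1 was lower, the glutamate transporter Slc1a2 (-0.43 and -0.36). Their medians were 0.00786 and 0.16, and in cortex 1 and 2 of the 6 were lower and 0 higher. The markers of cortical excitatory neurons, none called in striatum, had a median of -1.05 there at 7 months and 0.24 at 11 months, with Slc17a7 at 6.70 to 8.71 in BACHD-ΔN17 and 7.87 to 10.09 in wild-type mice at 7 months. The part of these markers in the falls of the members was not tested.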

How the data were processed

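RNA of cortex and striatum from 24 mice was measured on Illumina mouse expression arrays, 1 array per region and mouse. The authors deposited a probe table with a linear intensity and a detection p-value for each of 25697 probes on each of the 48 arrays, without background correction or normalization as its values show, and a table of processed log2 values. The deposited log2 values equalled quantile-normalized log2 intensities with no background correction (largest difference of sorted values 5e-09). The software behind them is not given in the sources used here.

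Intensities were background-corrected from the detection p-values (normexp, offset 16), quantile-normalized and log2-transformed with limma 3.58.1 in R 4.3.3. The brightest probe stood for a gene. Group means with a term for sex were fitted per region across all genes detected (p under 0.05 on at least 4 of 24 arrays: 11225 in striatum, 11047 in cortex), with moderated variances that follow the mean and Benjamini-Hochberg adjustment at 0.05. Regions were compared by the within-mouse difference over 11573 genes, since the sample titles tie both arrays to 1 mouse. The number of mice limits precision. The labels name separate mice, so p-values measure the spread between mice. A value against arrays at the detection floor is given as at least N-fold.

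The members and all gene lists were chosen with earlier results of these data known. Named genes were the called members of the genotype comparisons, up to 8 each way in the region, age and difference-between-region comparisons, and 14 members named whatever their values. The fit was tested on simulated data. Alternatives were another background and normalization, filters, probe summaries, terms for internal sample number, and leaving out each mouse. Replicate labels repeat within groups and do not pair the genotypes.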

Additional observations from a re-analysis of the deposited data

Results flagged for a closer look

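In 18 of 372 groups of 4 arrays (4.84%), over 31 members, 1 array stood apart from its 3 group mates by Dixon's test, close to the 1 in 20 that chance flags. In striatum, the highest of 4 were BACHD-ΔN17 replicate 1 at 7 months for Kcnd2 (11.97, others 11.84), BACHD-ΔN17 replicate 2 at 7 months for Kcnj4 (11.39, others 10.91 to 10.92), wild-type replicate 1 at 7 months for Kcng4 (7.81, others 5.31 to 5.64), wild-type replicate 3 at 7 months for Kcnh1 (10.85, others 10.52 to 10.55) and wild-type replicate 4 at 11 months for Kcns1 (6.93, others 6.42 to 6.46). The lowest were BACHD-ΔN17 replicate 2 at 7 months for Kcng4 (5.12, others 6.82 to 7.12), BACHD-ΔN17 replicate 1 at 11 months for Kcnk2 (10.61, others 10.73 to 10.74) and wild-type replicate 1 at 7 months for Kcnn1 (7.85, others 8.25 to 8.32).

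In cortex, the highest were wild-type replicate 2 at 11 months for Kcnc4 (12.84, others 12.41 to 12.44), BACHD-ΔN17 replicate 2 at 7 months for Kcnh3 (10.39, others 9.92 to 9.99), wild-type replicate 3 at 2 months for Kcnip3 (10.73, others 10.39 to 10.43), wild-type replicate 4 at 7 months for Kcnj4 (11.1, others 10.85 to 10.87) and BACHD-ΔN17 replicate 2 at 2 months for Kcns2 (8.55, others 8.23 to 8.26). The lowest were wild-type replicate 4 at 11 months for Kcnab1 (11.38, others 11.63 to 11.67) and for Kcnd2 (10.93, others 11.25 to 11.29), wild-type replicate 3 at 11 months for Kcnh3 (10.21, others 10.72 to 10.8), BACHD-ΔN17 replicate 3 at 7 months for Kcnh5 (7.58, others 7.86 to 7.89) and wild-type replicate 3 at 2 months for Kcnip2 (8.67, others 9.51 to 9.55).

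The genotype difference changed from 2 to 11 months, by the limma test of the change, for 7 members in striatum: Kcnip3 (-1.17), Kcnip2 (-1.1), Kcnd2 (-0.89), Kcns2 (-0.739), Kcnj4 (-0.645), Kcnh1 (-0.568) and Kcnab1 (-0.561). It changed for 8 in cortex: Kcne1l (1.37), Kcnk4 (-0.973), Kcnh5 (-0.955), Kcnip3 (-0.829), Kcnj9 (-0.799), Kcnip2 (-0.789), Kcnv1 (-0.699) and Kcnh1 (-0.564).

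The genotype difference differed between striatum and cortex of the same mice at 7 months for Kcnj4 (-0.813) and Kcnd2 (-0.465), given as striatum minus cortex. At 11 months it differed for Kcnk12 (1.7), Kcne1l (-1.67), Kcnk2 (-0.888), Kcnj4 (-0.857), Kcnab1 (-0.741) and Kcnd2 (-0.474).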

How the results depend on the processing

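Of the 57 called member results in the 6 genotype comparisons, 37 kept their call without any 1 mouse, 18 kept it in every alternative run, and 0 reversed. Values without background correction and the authors' processed values are the same values. Counts of called members moved by over 1.5 times in these settings, and the cause was not tested. Scale normalization gave 6 in striatum at 7 months (12), 0 in cortex at 7 months (4), 9 in cortex at 11 months (22), 1 for the cortical change from 2 to 11 months (8) and 0 for the difference between regions at 7 months (2). Without internal sample numbers 1 to 8 the counts were 7 and 12 in cortex at 7 and 11 months, 5 for the cortical change, and 1 and 2 (6 with all arrays) for the difference between regions at 7 and 11 months. Numbers 1 to 32 alone gave 0 and 12 in cortex at 7 and 11 months and 0 for the cortical change. Both settings leave fewer arrays, and the part of this in the counts was not tested. Eights of internal numbers as a factor and no detection filter each gave 2 in cortex at 7 months, and the latter 1 for the difference between regions at 7 months. Only the 8 arrays of an age gave 2 and 12 in cortex at 7 and 11 months. With the label's replicate number as a replicate block, the counts were 11 and 10 in striatum at 7 and 11 months (19 without), 3 for the striatal change (7), 2 and 9 in cortex at 7 and 11 months, and 1 for the cortical change. These numbers do not pair the genotypes. With 48 arrays taken as independent, no replicate block, 43 members were called between regions in wild-type mice (40 within mice).

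Leaving out each mouse gave 10 to 14 and 13 to 19 in striatum at 7 and 11 months, 1 to 4 and 17 to 22 in cortex, 5 to 8 and 5 to 10 for the striatal and cortical change, 1 to 2 and 5 to 8 for the difference between regions at 7 and 11 months, and 38 to 41 between regions in wild-type mice. Dim signal limits Kcnk12, Kcng4 and Kcnk4 in striatum, Kcna5 in cortex, Kcnrg, and the 24 members not tested.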
